A study of Mus musculus with 6 samples.

Results

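The genes described here are 39 listed genes of ribosome biogenesis, followed in mouse embryoid bodies during retinoic acid treatment. They encode nucleolar proteins, RNA polymerase I factors and proteins that process and modify the precursor of ribosomal RNA (rRNA). Members were found by gene symbol among probe sets annotated with a single symbol, and the brightest probe set of a gene was used. In this way 38 of the 39 were measured, out of 19938 genes in all, and Noc2l was not analysed here.

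Embryoid bodies (EBs), which are floating aggregates in which embryonic stem cells differentiate, were grown from R1 mouse ES cells, an established line, plated at 35000 cells per ml without leukaemia inhibitory factor. The treated groups received 2 μM retinoic acid (RA) at an EB age of 4 days and were collected after 3 days (day 3) or 4 days (day 4). The EBs of day 0 were taken on the day of RA addition, before RA, and differ from the others in age as well as in treatment. EBs of matching age without RA were not analysed here, and an effect of RA cannot be told apart from one of age. Each day had 2 samples, each on its own Affymetrix Mouse Gene 1.0 ST array, and all values are log2 intensities after Robust Multichip Average (RMA) normalization. Whether both samples of a day were cultured separately is not stated for the arrays, and the p-values thus reflect variation between arrays that may be technical.

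Ribosomes are assembled in the nucleolus. RNA polymerase I transcribes the long rRNA precursor, small nucleolar RNPs (snoRNPs) methylate and pseudouridylate it, and large sets of assembly factors fold and cut it while ribosomal proteins join the small and the large subunit. Stem cells and other fast-growing cells are known for large, active nucleoli, and Myc is known as an activator of many genes of this pathway.

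The 6 arrays had medians between 6.69 and 6.85, and the lowest were those of day 4. Arrays of the same day correlated at r = 0.999 over the 19938 genes on each of the 3 days. Over the 38 members, the greatest difference between both arrays of a day was 0.20 at day 0 (Fbl), 0.14 at day 3 (Rrs1) and 0.12 at day 4 (Wdr43). Only 2 arrays per day limit the precision of every value below. The labels call all samples embryonic stem cells, and markers of pluripotent cells were checked against that name. Of 10 such markers, 9 were lower at day 4 than at day 0, against 25.6% of all genes, and their median log2 change was −2.29. Pou5f1 measured 10.27 and 10.20 on the day 0 arrays, 6.31 and 6.01 on those of day 3, and 6.16 and 6.13 on those of day 4. On days 3 and 4 this defining marker of the labelled cell type went against the label.

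Ribosome biogenesis genes were lower at day 4 than at day 0 almost throughout the set. By limma's moderated test, with p-values adjusted over all 19938 genes and an adjusted p of 0.05 as the threshold, 36 of the 38 measured members fell and 0 rose, where 25.6% of all genes tested fell and 25.9% rose. In 36 members both day 4 arrays lay below both day 0 arrays, which held for 36.4% of all genes. The median log2 change of the members was −0.94, against −0.00 for all genes, and single members ranged from −1.85 to 0.13. A fall of at least 2-fold was called for 17 members, against 4.61% of all genes. Polr1c and Ubtf were the members not called.

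Over all genes, 5154 rose and 5106 fell at day 4 against day 0. With arrays centred on their medians these were 7132 and 3915, and the median change of all genes moved to 0.11 while that of the members was −0.83. Centring shifts all genes of an array alike. It therefore cannot change the distance of the members from all genes, which was −0.94. RMA includes quantile normalization, so every change is one against the rest of the transcripts measured. In EBs of mixed cells, fewer cells of a type and less RNA per cell cannot be told apart.

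**Figure D1:**
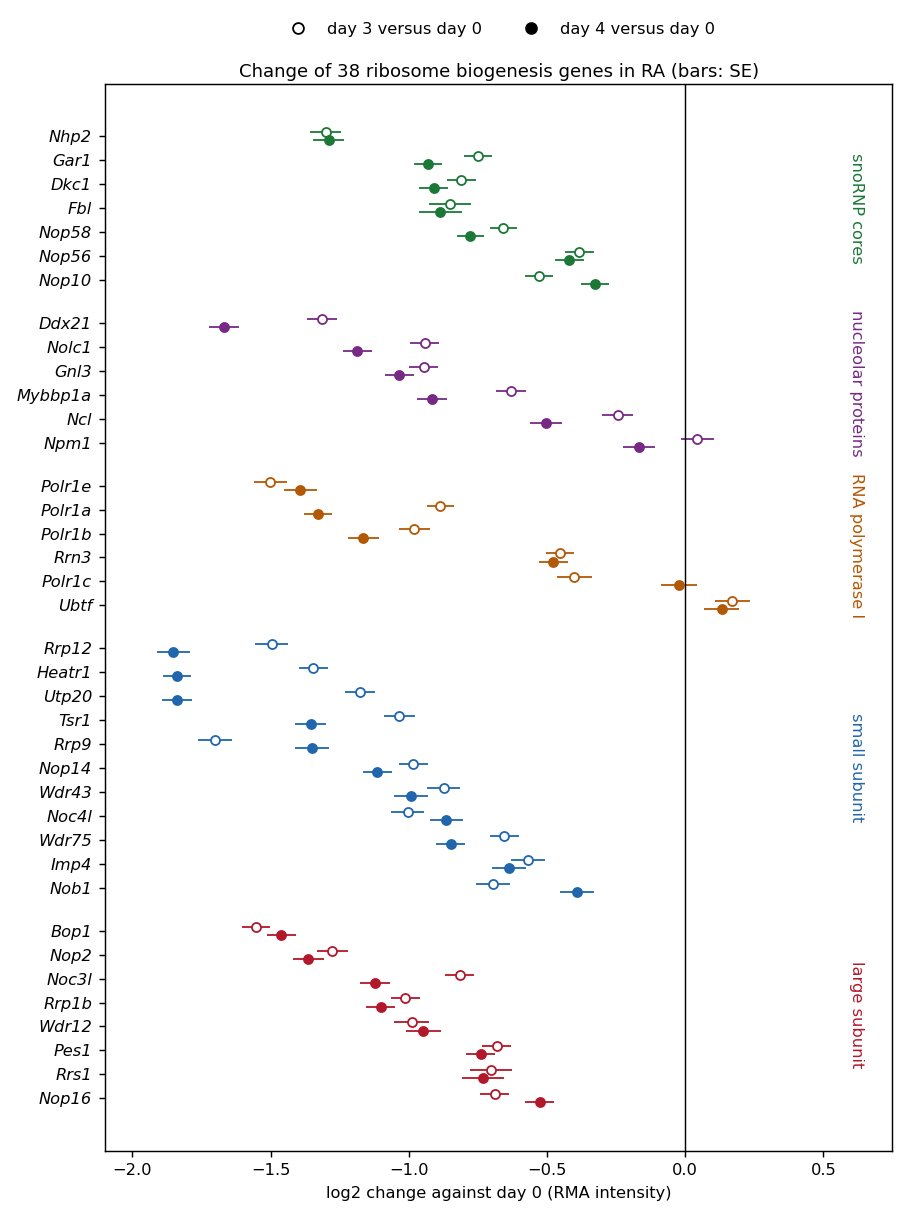
Log2 change of the 38 measured members against day 0 (x axis), grouped by role, at day 3 (open circles) and day 4 (filled circles), with bars for the SE. Apart from Ubtf, Npm1 and Polr1c, the members lie left of 0 by several SE at both days, and the changes at day 4 run from −1.85 in Rrp12 to 0.13 in Ubtf.

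Factors of the small subunit held the 3 largest falls of the set. All 11 of them were lower at day 4 than at day 0, with a median log2 change of −1.11. They are among the proteins of the small subunit processome, the large particle that forms on the nascent rRNA precursor, and of later stages of the small subunit. Rrp12, a helical repeat protein of small subunit maturation, measured 9.62 and 9.66 at day 0, then 8.12 and 8.17 at day 3 and 7.74 and 7.84 at day 4. It was 3.61-fold lower at day 4 than at day 0 (log2 change −1.85, SE 0.06, adjusted p = 4.47e-07 by limma). The arrays of the 3 days did not overlap, and day 4 was the lowest.

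Heatr1, a processome protein that is also needed for transcription by RNA polymerase I, stood at 11.10 and 11.09 before RA (day 0), 9.72 and 9.77 after 3 days of RA and 9.25 and 9.26 after 4 days. Utp20, a very large scaffold of the processome, stood at 10.82 and 10.82, then at 9.68 and 9.62, and then at 9.02 and 8.96 on the same days. Both were lower by 1.84 log2 units at day 4 than at day 0, with adjusted p-values of 2.51e-07 for Heatr1 and 3.34e-07 for Utp20. Each of them stepped down at day 3 and again at day 4, and the arrays of the 3 days did not overlap.

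Tsr1, a GTPase-like factor of late small subunit precursors, had 11.15 and 11.07 on the day 0 arrays, 10.10 and 10.05 on the day 3 arrays and 9.77 and 9.735 on the day 4 arrays, a log2 change of −1.36 at day 4 (adjusted p = 1.31e-06). Rrp9, a protein of the U3 snoRNP that guides early cuts of the precursor, measured 10.88 and 10.87 at day 0, then 9.25 and 9.11 at day 3 and 9.54 and 9.52 at day 4. Its day 4 arrays lay between those of the other days, at a log2 change of −1.35 against day 0. Nob1, the nuclease that makes the final cut of the small subunit rRNA, measured 11.56 and 11.45 before RA (day 0), 10.78 and 10.85 after 3 days of RA and 11.12 and 11.11 after 4 days, a log2 change of −0.39 at day 4 and the smallest of the 11.

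The other small subunit members were Nop14 and Noc4l, known from yeast to act together in the processome, Wdr43 and Wdr75, which bind the start of the precursor, and Imp4, a partner of the U3 snoRNA. Their log2 changes at day 4 were −1.11 for Nop14, −0.99 for Wdr43, −0.86 for Noc4l, −0.85 for Wdr75 and −0.64 for Imp4. None of their day 4 arrays reached the day 0 arrays.

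Assembly factors of the large subunit were lower at day 4 in all 8 measured cases, with a median log2 change of −1.02. Bop1, which with Pes1 and Wdr12 forms the PeBoW complex of large subunit rRNA processing, measured 11.24 and 11.20 on the day 0 arrays, 9.65 and 9.69 on the day 3 arrays and 9.76 and 9.76 on the day 4 arrays. It was 2.75-fold lower at day 4 (adjusted p = 6.84e-07), while its partners Wdr12 and Pes1 changed by −0.95 and −0.74 log2 units. A further probe set of Wdr12 changed by −1.17. The difference between the partners in size of change was not tested.

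Nop2, a methyltransferase of large subunit rRNA, stood at 11.73 and 11.67 at day 0, then 10.46 and 10.39 at day 3 and 10.32 and 10.36 at day 4 (log2 change −1.36, adjusted p = 1.4e-06). Most of that change was present at day 3. Noc3l, a factor of early large subunit precursors, was lower by 1.12 log2 units at day 4 than at day 0 (adjusted p = 2.62e-06), and Rrp1b, a nucleolar protein of large subunit processing, changed by −1.10. Rrs1, which in yeast helps to bring the small free-standing rRNA into the large subunit, changed by −0.73, and Nop16 by −0.53.

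The cores of the snoRNPs were lower at day 4 in 7 of 7 members, with a median log2 change of −0.89. In the pseudouridylating box H/ACA particle, the change was −1.29 for Nhp2, −0.93 for Gar1, −0.91 for Dkc1, the pseudouridine synthase, and −0.33 for Nop10. In the methylating box C/D particle it was −0.89 for Fbl, the methyltransferase, −0.78 for Nop58 and −0.42 for Nop56, and a further probe set of Fbl changed by −0.87. The SE of a member's change was 0.05 to 0.08, and the differences between genes were not tested. Over the 38 members, the mean level over the 6 arrays and the log2 change had a Spearman rho of 0.731 at day 4 and 0.753 at day 3 against day 0. That mean includes the day 3 and day 4 arrays, so a larger fall itself lowers it. The rho is thus in part built in, and it cannot show whether brighter probe sets changed less. Over 18565 protein-coding genes the rho was 0.00122 and 0.0549. Nearly all members fell, so that value does not gauge the built-in part among them. Over 93 further assembly factors of both subunits, most of which also fell, the rho was 0.362 at day 4 and 0.293 at day 3. Those values hold a built-in part too. The genes share the same arrays, and the part of probe brightness in the size of the changes was not tested. Nop10 measured 11.87 and 11.91 before RA (day 0), 11.35 and 11.37 after 3 days of RA and 11.56 and 11.56 after 4 days, so that its day 4 arrays lay between those of the other days.

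Abundant nucleolar proteins were lower in 6 of 6 members at day 4 (median log2 change −0.98). Ddx21, an RNA helicase of rRNA transcription and processing, had 11.84 and 11.81 on the day 0 arrays, 10.55 and 10.47 on the day 3 arrays and 10.14 and 10.17 on the day 4 arrays. It was 3.18-fold lower at day 4 than at day 0 (log2 change −1.67, SE 0.06, adjusted p = 5.01e-07 by limma). Nolc1, a chaperone of snoRNPs, changed by −1.19, Gnl3, the stem cell protein nucleostemin, by −1.03, Mybbp1a, a nucleolar Myb-binding protein, by −0.92, and Ncl (nucleolin) by −0.50.

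Npm1 (nucleophosmin), a histone chaperone and the main protein of the outer nucleolus, measured 12.42 and 12.52 at day 0, then 12.53 and 12.50 at day 3 and 12.28 and 12.33 at day 4. Its log2 change at day 4 was −0.17, with an adjusted p of 0.0452. The call was lost under 9 of the 13 alternatives, with adjusted p-values of 0.0532 to 0.429, among them leaving out day 0 replicate 2 (0.209) or either array of day 3 or day 4. The 3 probe sets that the annotation assigns to both Npm1 and Gm15484 changed by −0.08, −0.08 and −0.07, so signal of near-identical copies cannot be told apart by these probes and the level of Npm1 is uncertain.

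Members of the RNA polymerase I machinery were lower at day 4 in 4 of 6 cases, with a median log2 change of −0.82 and an interquartile range of 1.15, the widest among the roles. Polr1e, the subunit PAF53, stood at 10.74 and 10.73 before RA (day 0), 9.17 and 9.30 after 3 days of RA and 9.34 and 9.35 after 4 days (log2 change −1.39, adjusted p = 1.67e-06). The catalytic subunits Polr1a and Polr1b changed by −1.33 and −1.16, and Rrn3, the initiation factor TIF-IA, by −0.48. Polr1c, a subunit shared with RNA polymerase III, measured 11.58 and 11.52 on the day 0 arrays, 11.08 and 11.22 on the day 3 arrays and 11.52 and 11.54 on the day 4 arrays, and its day 4 arrays overlapped those of day 0 (log2 change −0.02, adjusted p = 0.807). Ubtf, the factor that binds and opens the rRNA genes, measured 10.96 and 10.86 at day 0, then 11.13 and 11.03 at day 3 and 11.06 and 11.03 at day 4, all later arrays being above those of day 0. Its log2 change at day 4 was 0.13 (SE 0.06, adjusted p = 0.124), and with arrays centred on their medians it was 0.24 (adjusted p = 0.0153).

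**Figure D2:**
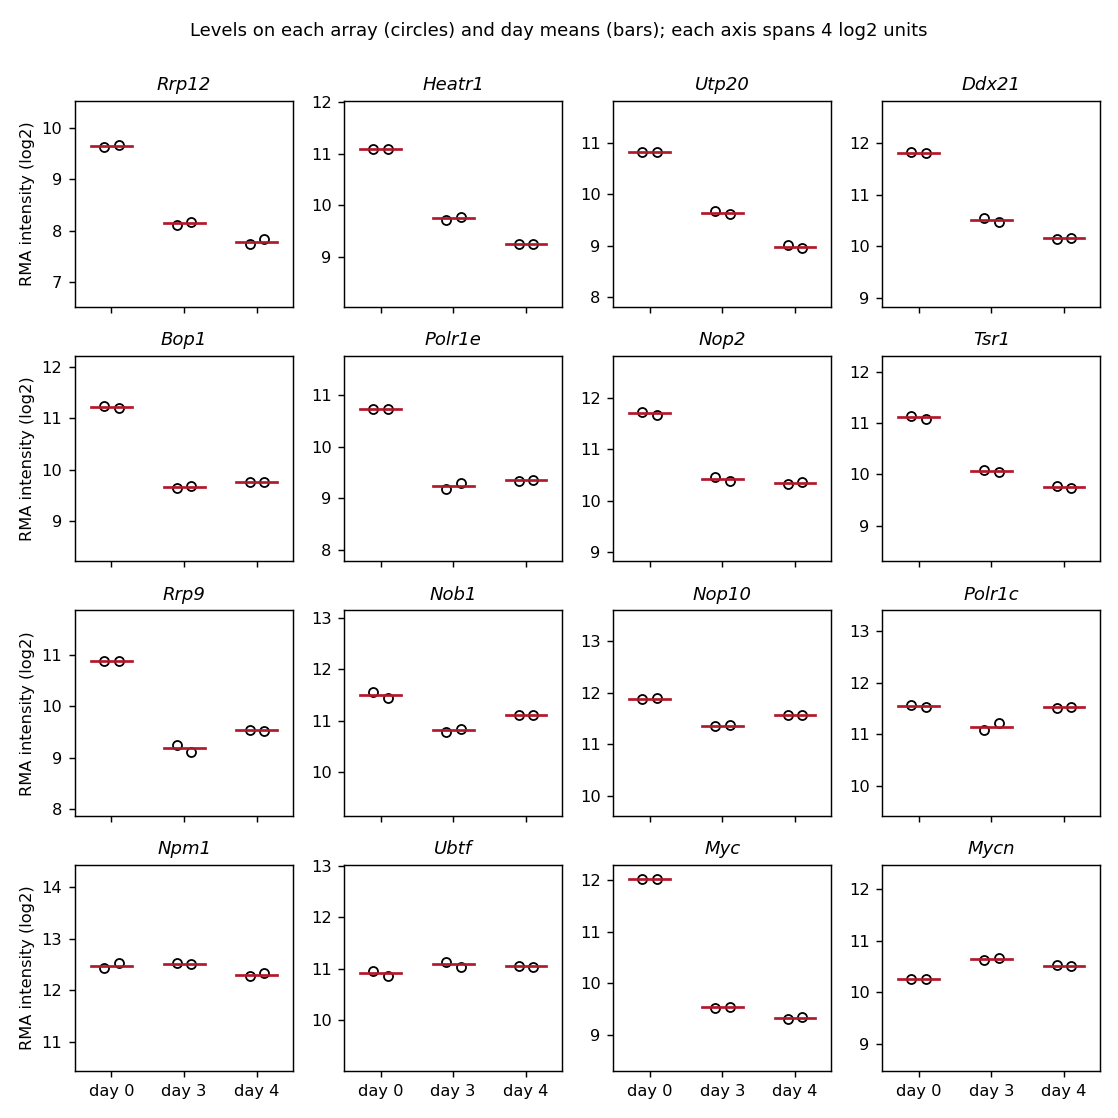
RMA log2 intensity of the members with the largest, smallest or opposite changes, and of Myc and Mycn, on each array of day 0, day 3 and day 4 (circles, with bars for the mean of a day). Each panel spans 4 log2 units, and the 2 arrays of a day lie close together beside the steps between days, such as that of Utp20 from day 0 through day 3 to day 4.

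The stretches around the start of the members were examined for 3 short motifs, in windows of 300 bases from 250 bases before the annotated start. They include windows of Ubtf and Polr1c, the members not called at day 4. Windows came from RefSeq (GRCm38.p6) and were listed for 33 of the 38 measured members, in 41 windows, but not for Rrp12, Bop1, Rrs1, Fbl or Npm1. The E-box CACGTG, the sequence that Myc and related factors are known to bind, stood in 8 of the 41 windows (19.5%), against 8.26% of the 19116 windows of genes on the array and 7.15% of all 32851 windows. It was in windows of Imp4, Mybbp1a, Nop2, Pes1, Rrn3, Tsr1, Utp20 and Wdr43. The windows of the 3 genes with the largest falls among these are shown to place the E-box relative to the start, with the E-box in capitals. Beside them is that of Polr1c, which has none and did not pass the test at day 4. Heatr1, Ddx21 and Polr1e, with log2 changes of −1.84, −1.67 and −1.39 at day 4, had no E-box in their windows either. The sequences run 5′ to 3′ on the strand of the gene.
Utp20: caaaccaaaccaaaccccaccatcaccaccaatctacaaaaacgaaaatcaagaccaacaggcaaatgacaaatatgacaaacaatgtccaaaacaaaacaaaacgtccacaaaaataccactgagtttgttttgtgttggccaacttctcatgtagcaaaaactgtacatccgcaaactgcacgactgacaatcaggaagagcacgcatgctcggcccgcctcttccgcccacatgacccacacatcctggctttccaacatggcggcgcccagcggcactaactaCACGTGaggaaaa
Nop2: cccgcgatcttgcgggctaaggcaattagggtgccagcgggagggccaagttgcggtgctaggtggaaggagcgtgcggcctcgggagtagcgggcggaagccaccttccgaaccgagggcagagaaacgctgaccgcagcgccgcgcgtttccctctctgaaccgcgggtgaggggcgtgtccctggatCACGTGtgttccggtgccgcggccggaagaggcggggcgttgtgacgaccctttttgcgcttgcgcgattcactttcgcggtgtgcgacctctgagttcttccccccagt
Tsr1: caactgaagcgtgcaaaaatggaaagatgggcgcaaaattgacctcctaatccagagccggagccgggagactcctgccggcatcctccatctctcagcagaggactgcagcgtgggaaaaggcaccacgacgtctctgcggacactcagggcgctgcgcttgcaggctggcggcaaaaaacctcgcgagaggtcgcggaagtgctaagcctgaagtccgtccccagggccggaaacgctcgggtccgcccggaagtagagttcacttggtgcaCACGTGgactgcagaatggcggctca
Polr1c: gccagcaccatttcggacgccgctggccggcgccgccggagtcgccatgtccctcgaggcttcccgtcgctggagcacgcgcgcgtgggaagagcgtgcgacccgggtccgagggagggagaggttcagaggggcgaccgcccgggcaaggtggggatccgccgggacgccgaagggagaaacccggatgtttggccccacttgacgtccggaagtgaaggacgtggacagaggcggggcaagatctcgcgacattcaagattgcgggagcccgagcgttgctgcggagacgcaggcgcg
They cover chr10:88826765-88827064 on the minus strand (Utp20), chr6:125131633-125131932 on the plus strand (Nop2), chr11:74897830-74898129 on the plus strand (Tsr1) and chr17:46247996-46248295 on the minus strand (Polr1c). The E-box began at base 38 from the start in Utp20, 60 bases before the start in Nop2 and at base 25 in Tsr1. The sequence CGGAAG, the core bound by ETS factors, was found on either strand in 18 of the 41 windows (43.9%), against 22.1% of the windows of array genes and 16.9% of all windows. TATAAA, also on either strand, was in 2 (4.88%), against 11.5% and 13.6%. None of the E-boxes overlapped one of the other motifs.

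The 8 members with an E-box had a median log2 change of −0.95 at day 4, and the 25 members with windows but no E-box had a median of −0.95 as well. A match of letters is a description of the window and not a binding site.

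Myc measured 12.02 and 12.02 before RA (day 0), 9.52 and 9.54 after 3 days of RA and 9.31 and 9.34 after 4 days. It was lower by 2.70 log2 units at day 4 than at day 0 (SE 0.05, adjusted p = 7e-08). Mycn, its relative of neural and embryonic cells, measured 10.26 and 10.26 on the day 0 arrays, 10.62 and 10.67 on the day 3 arrays and 10.52 and 10.51 on the day 4 arrays, and was higher by 0.26 (adjusted p = 0.00403). The groups did not overlap for either gene, and against day 0 they moved in opposite directions.

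The rest of the pathway was examined from lists of genes that are not among the 38. The counts at day 4 against day 0 are set beside the 25.6% of all genes that fell and 25.9% that rose. With arrays centred on their medians these shares were 19.6% and 35.8%. Of 44 measured further factors of the small subunit, 41 fell and 0 rose at day 4 against day 0 (median −0.72), and of 49 further factors of the large subunit, 46 fell and 1 rose (median −0.76). Nat10, which acetylates small subunit rRNA, changed by −1.58, and Utp14a, a processome factor, by −1.53. The large ATPase Mdn1, which strips factors from large subunit precursors, changed by −2.55, and Urb1 by −1.83. The riser was Nsa2, at 0.16 (adjusted p = 0.0288).

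Among the smaller lists, 9 of 10 factors of snoRNP assembly fell (median −0.36), led by Shq1 at −1.35 and Naf1 at −1.05, the chaperones of box H/ACA particles. With arrays centred on their medians 7 of them fell (median −0.25). Of 16 further RNA polymerase I factors, 14 fell and 2 rose (median −0.40), or 9 and 2 with arrays centred on their medians (median −0.29). Taf1d and Tcof1, which act at the rRNA gene promoter, changed by −1.27 and −1.14, and Taf1b and the polymerase subunit Znrd1 rose by 0.50 and 0.23. In the exosome, the complex that trims and degrades RNA, and its cofactors, 12 of 14 fell and 1 rose (median −0.51), with Dis3 at −1.35, the helicase Mtrex at −0.76 and C1d at 0.31. With centred arrays 10 of these 14 fell and 1 rose (median −0.40). For the proteins of RNase MRP and RNase P, 5 of 10 fell and 1 rose (median −0.21, or −0.11 with centred arrays), with Pop1 at −1.73, Pop5 at −1.03 and Rpp25 at 0.54.

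Structural proteins of cytosolic and of mitochondrial ribosomes are set beside these lists. Of 79 listed cytosolic ribosomal proteins, 55 had a single-symbol probe set, and 6 of them fell and 4 rose at day 4 (median −0.03, or 0.08 with arrays centred on their medians, where 4 fell and 10 rose). In the main values 10.9% fell and 7.27% rose, against 25.6% and 25.9% of all genes. With centred arrays the shares of all genes were 19.6% and 35.8%. The called cytosolic genes with the largest changes were Rpl12 at −1.53, Rpl30 at −0.58, Rpl22 at 0.40 and Rps14 at 0.31. These genes have many near-identical copies in the genome, so their levels are uncertain. Of 77 measured mitochondrial ribosomal proteins, 31 fell and 7 rose (median −0.09, or 0.02 with centred arrays, where 21 fell and 16 rose), with Mrps18b at −1.28, Mrps28 at −1.06, Mrpl14 at 0.63 and Mrpl48 at 0.48.

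**Figure D3:**
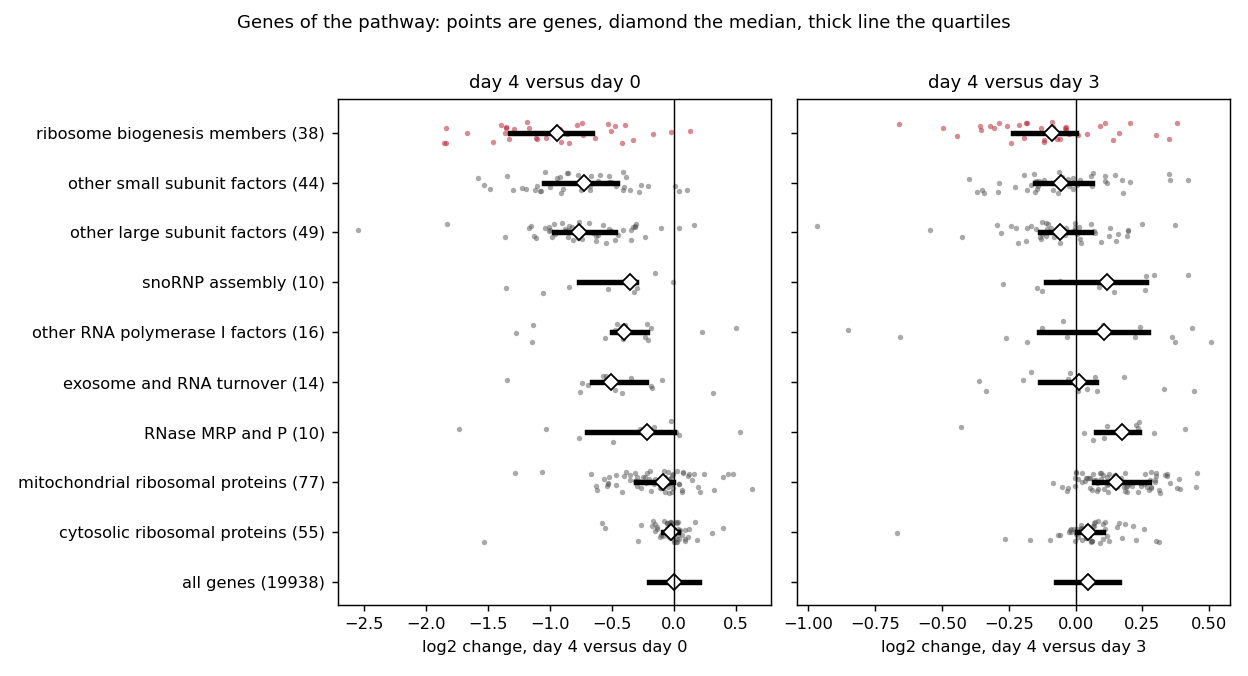
Log2 change of each gene (points) in the 38 members and in 8 related lists, at day 4 against day 0 (left) and day 4 against day 3 (right), with the number of measured genes, the median (diamond) and the quartiles (thick line), and all 19938 genes at the bottom. On the left, the median of the members lies at −0.94 and that of the cytosolic ribosomal proteins at −0.03.

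Markers of cell types and of division moved over the same days. Their counts at day 4 against day 0 are set beside the 25.6% of all genes that were lower and 25.9% that were higher. With centred arrays these shares were 19.6% and 35.8%. Of 9 measured markers of dividing cells, 9 were lower at day 4 than at day 0 (median −0.42), and their mean level was 12.00 and 12.01 at day 0, then 11.72 and 11.69 at day 3 and 11.53 and 11.53 at day 4. The mean level of the 10 pluripotency markers was between 8.75 and 8.77 at day 0, between 6.65 and 6.72 at day 3 and between 6.58 and 6.74 at day 4. Of 5 mesenchyme markers, 4 were higher at day 4 and 1 was lower, with a mean level of 7.08 to 7.34 at day 0, 8.90 to 9.01 at day 3 and 9.34 to 9.46 at day 4.

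Of 6 endothelial markers, 4 were higher and 2 lower at day 4 (mean level 8.84 to 8.92 at day 0, 9.94 to 10.06 at day 3 and 9.67 to 9.71 at day 4). Among 6 measured markers of embryonic red cells, 3 were higher and 1 was lower (7.29 to 7.35 at day 0, 10.42 to 10.55 at day 3 and 8.66 to 8.85 at day 4). For visceral endoderm 3 of 5 were higher, for neurons 2 of 7 were higher and 3 lower (3 and 1 with centred arrays, 2 and 1 with cyclic loess), and for cardiac muscle 1 of 4 was higher and 1 lower. The part of these changes in the fall of the ribosome biogenesis genes was not tested.

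At day 3 the fall of the set was already present. Relative to day 0, 36 of the 38 members were lower and 0 higher by limma's test, where 28.1% of all genes tested were lower and 23.8% higher, and both day 3 arrays lay below both day 0 arrays in 36 members, against 43.5% of all genes. The median log2 change was −0.86, against −0.05 for all genes, with a range from −1.70 to 0.17. The members not called were Npm1 (0.04, adjusted p = 0.564) and Ubtf (0.17, adjusted p = 0.0569). At least 2-fold lower were 12 members, against 4.09% of all genes.

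By role, the fall at day 3 included 11 of 11 small subunit factors (median −1.003), 8 of 8 large subunit factors (−0.90), 7 of 7 snoRNP cores (−0.75), 5 of 6 nucleolar proteins (−0.79) and 5 of 6 RNA polymerase I factors (−0.67). The largest changes were those of Rrp9 at −1.70, Bop1 at −1.55, Polr1e at −1.50 and Rrp12 at −1.50. Polr1c, not called at day 4, was lower by 0.40 log2 units at day 3 (adjusted p = 0.00142). The call of Ncl at day 3 (−0.24, adjusted p = 0.00938) was lost without day 0 replicate 2 (adjusted p = 0.0567). Ubtf was called higher at day 3 under 4 of the 13 alternatives.

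In the related lists, 42 of 44 further small subunit factors, 47 of 49 further large subunit factors and 9 of 10 snoRNP assembly factors were lower at day 3 (medians −0.71, −0.69 and −0.64), and 0 were higher in each. Of the 55 cytosolic ribosomal proteins, 15 were lower and 0 higher (median −0.07), and of the 77 mitochondrial ones 53 were lower and 3 higher (median −0.30). In shares, 27.3% of the cytosolic and 68.8% of the mitochondrial ones were lower. Of all genes, 28.1% were lower and 23.8% higher at day 3, so the cytosolic share of falls lay near that of all genes.

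Between day 3 and day 4 the calls of the members were mixed, and the share called higher, 10.5%, lay below that of all genes. In the comparison of day 4 with day 3, which tests whether the changes from day 0 at both days differ, 14 members were lower, 4 were higher and 20 were not called, where 12.2% of all genes were lower and 15.8% higher. The median log2 change was −0.09, against 0.05 for all genes, but it was 0.04 with arrays centred on their medians, where all genes had a median of 0.18. Over all genes, 3156 were higher and 2437 lower, and with centred arrays 8829 and 1381. The distance of the members' median from that of all genes was −0.14, which centring cannot change because it shifts all genes of an array alike. In 24 members both day 4 arrays lay below both day 3 arrays, against 25.2% of all genes.

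The members lower at day 4 than at day 3 were led by the processome and polymerase proteins already named. Utp20 changed by −0.66 (adjusted p = 0.000514), Heatr1 by −0.49 (0.00102) and Polr1a, which had 9.97 and 9.996 at day 3 and 9.55 and 9.53 at day 4, by −0.44 (0.00141). Rrp12, Ddx21, Tsr1 and Noc3l followed at −0.36, −0.35, −0.32 and −0.30. These 7 kept their call under all 13 alternatives, and the other 7 (Mybbp1a, Ncl, Nolc1, Npm1, Wdr75, Polr1b and Gar1) lost it with centred arrays and when at least 1 array of day 3 or day 4 was left out. By role, 5 of the 6 nucleolar proteins were lower at day 4 than at day 3 (median −0.25, or −0.12 with centred arrays, where 1 was called).

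The members higher at day 4 than at day 3 were Polr1c (0.38, adjusted p = 0.00614), Rrp9 (0.35, 0.00707), Nob1 (0.30, 0.0114) and Nop10 (0.20, 0.0248). For all 4, both day 4 arrays lay above both day 3 arrays, as in 41.3% of all genes. Polr1c and Rrp9 kept their call under all alternatives. Nob1 lost it without day 3 replicate 1 (adjusted p = 0.0740), day 4 replicate 1 (0.0511) or day 4 replicate 2 (0.0561), and Nop10 without any 1 array of day 3 or day 4 (0.0802 to 0.119). With arrays centred on their medians, Nop16, Noc4l, Polr1e and Bop1 were also called higher.

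Over the 3 comparisons together, 19 members were lower at day 3, not called from day 3 to day 4 and lower at day 4, 13 were lower at each step, and 3 (Nob1, Nop10 and Rrp9) were lower at day 3, higher from day 3 to day 4 and still lower at day 4. Npm1 was lower from day 3 to day 4 and at day 4, Polr1c was lower at day 3 and higher from day 3 to day 4, and Ubtf passed no test.

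The change on the last day was set beside the length of the genes. Across the 38 members, the genomic span in RefSeq (GRCm38.p6) and the log2 change of day 4 against day 3 had a Spearman rho of −0.562, as a description over genes that share the same arrays. It was −0.606 over 93 further assembly factors and −0.227 over 18565 protein-coding genes. The members lower by most had spans of 80.2 kb (Utp20), 43.5 kb (Heatr1), 70.4 kb (Polr1a) and 36.7 kb (Rrp12), and the 4 members called higher had spans of 4.13 kb (Polr1c), 8.11 kb (Rrp9), 12.6 kb (Nob1) and 0.973 kb (Nop10). Exceptions were Tsr1, at −0.32 with a span of 11.3 kb, Gar1, at −0.18 with 6.5 kb, and the long genes Wdr43 and Rrn3, at −0.12 with 42.9 kb and −0.02 with 34.1 kb. Wdr12 and Bop1, neither of them called, changed by 0.04 with 27.1 kb and by 0.09 with 24.3 kb. For the change of day 3 against day 0 the rho was −0.266 over the members, −0.117 over the 93 further factors and 0.126 over all protein-coding genes. For day 4 against day 0 it was −0.443, −0.324 and 0.0165 in the same order.

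**Figure D4:**
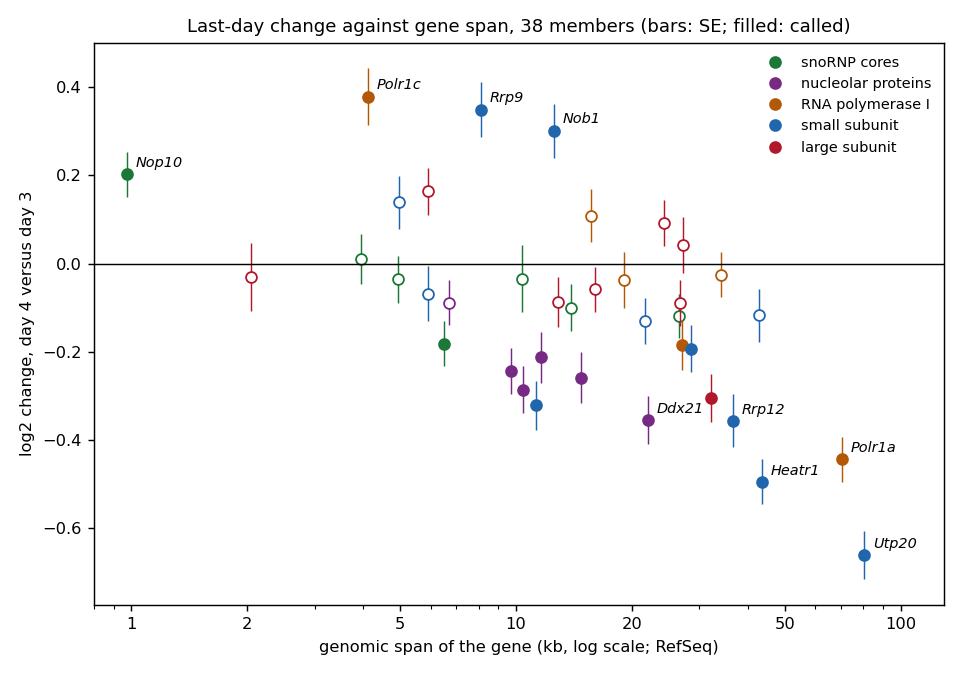
Log2 change of day 4 against day 3 (y axis, bars for the SE) of the 38 members against their genomic span in kb (x axis, log scale), coloured by role and filled where called. Utp20, with a span of 80.2 kb, lies lowest at −0.66, and the 4 members called higher have spans of up to 12.6 kb.

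In the related lists, calls over the same day depended on the scaling, and differences between lists were not tested. Of 77 mitochondrial ribosomal proteins, 30 were higher and 0 lower at day 4 than at day 3 (median 0.15), and with centred arrays 60 were higher and 0 lower (median 0.28). Of 55 cytosolic ones, 6 were higher and 2 lower (median 0.05), and with centred arrays 32 were higher and 1 lower (median 0.18). These counts stand beside the 15.8% of all genes that were higher and 12.2% that were lower, or 44.3% and 6.93% with centred arrays.

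Of 44 further small subunit factors, 3 were higher and 7 lower (median −0.06), a lean that turned with centred arrays to 12 higher and 3 lower (median 0.07). Of 49 further large subunit factors, 2 were higher and 9 lower (median −0.06), and with centred arrays 12 were higher and 3 lower (median 0.07). Of 10 snoRNP assembly factors, 4 were higher and 1 lower (median 0.12, or 0.25 with centred arrays, where 6 and 0 were called). Of 16 further RNA polymerase I factors these were 6 and 4 (median 0.11, or 0.24 with 8 and 2). For RNase MRP and P they were 3 and 1 of 10 (0.17, or 0.30 with 8 and 1). In the exosome list they were 2 and 3 of 14 (0.01, or 0.14 with 5 and 2). The ATPase Mdn1 changed by −0.97, the promoter factor Taf1d by −0.85 and the polymerase subunit Znrd1 by 0.37.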

How the data were processed

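The authors imported the arrays into Partek and normalized them by RMA, which corrects the background, applies quantile normalization and summarises probes, and the deposited values are log2 intensities per probe set. For the arrays, neither the version of these tools nor a genome build is given in the sources used here. Of 35557 probe sets, 21789 had 1 gene symbol in the platform annotation, 1621 had several and 12147 were unnamed here. RefSeq (GRCm38.p6) held the gene numbers of 21698 of those with 1 symbol and served for names, spans and promoter windows. The brightest probe set was used for the 999 genes with several, which gave 19938 genes.

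Two-sided tests used limma 3.58.1 in R 4.3.3 (functions lmFit and eBayes without a trend) on all 6 arrays with a mean per day, leaving 3 residual degrees of freedom plus 4.07 of the prior. Benjamini-Hochberg adjustment of p-values ran over all genes. The 13 alternatives covered scaling, moderation, samples in the fit, probe set choice, a mean of at least 6, a replicate block and leaving out each array.

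The members and lists were chosen with earlier results of these data known. Values on every array were given for the 8 largest and 3 smallest changes of day 4 versus day 0, for members called in opposite directions, and, of each related list, up to 2 called genes per direction were named.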

Additional observations from a re-analysis of the deposited data

Results flagged for a closer look

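For 18 members the change from day 0 differed between day 3 and day 4, by limma's test of that difference (day 4 minus day 3) over all genes. The day 3 and day 4 changes share the day 0 arrays, and the test of their difference rests on the day 3 and day 4 arrays. With 2 arrays per day, no test for single arrays that stand apart was made.

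In 14 members the level at day 4 was below that at day 3. The log2 differences were −0.66 in Utp20, −0.49 in Heatr1, −0.44 in Polr1a, −0.36 in Rrp12, −0.35 in Ddx21, −0.32 in Tsr1 and −0.30 in Noc3l. They were −0.29 in Mybbp1a, −0.26 in Ncl, −0.24 in Nolc1, −0.21 in Npm1, −0.19 in Wdr75, −0.18 in Polr1b and −0.18 in Gar1. In 4 members the level at day 4 was above that at day 3, by 0.38 in Polr1c, 0.35 in Rrp9, 0.30 in Nob1 and 0.20 in Nop10.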

How the results depend on the processing

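Of the 36 members called lower at day 4 against day 0, 35 kept their call under all 13 alternatives, all but Npm1, and so did 35 of 36 at day 3 against day 0, all but Ncl. From day 3 to day 4, 9 of 18 calls were kept. Of 1482 values of single members under the alternatives, 0 turned direction with a call. With arrays centred on their medians, the members' median was −0.83 at day 4 against day 0 and 0.0412 at day 4 against day 3, a change of sign, and 1 member (Ubtf) was called higher at day 4 against day 0, as also with an intensity trend and robust moderation. That scaling called 8829 genes higher and 1381 lower at day 4 against day 3 (8 and 7 members). In shares of all genes it called 19.6% lower and 35.8% higher at day 4 against day 0, where the main values were 25.6% and 25.9%, and 6.93% lower and 44.3% higher at day 4 against day 3, where they were 12.2% and 15.8%. With cyclic loess the members' median was −0.90 at day 4 and −0.83 at day 3 against day 0, and with the mean of all probe sets of a gene it was −0.96 at day 4.

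Ubtf was the 1 member called higher at day 3 against day 0 with cyclic loess, with the intensity trend, after dim genes with a mean under 6 were left out and with the replicate block. The correlation of differences between same-numbered arrays was 0.0342 for day 0 and day 3, 0.0580 for day 0 and day 4 and 0.0834 for day 3 and day 4, so the numbers were not taken to pair the arrays. With the replicate block, 1 member was called higher at day 3 against day 0, and Npm1 at day 4 against day 0 (adjusted p = 0.0532) and Polr1b at day 4 against day 3 (0.0559) missed the threshold.

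Leaving out 1 array at a time gave members' medians of −0.99 to −0.92 at day 4 against day 0, −0.90 to −0.84 at day 3 against day 0 and −0.0991 to −0.0678 at day 4 against day 3. In the last comparison it gave 1355 to 2998 genes higher and 1370 to 2278 lower, and 2 to 4 members higher and 7 to 12 lower. The lowest counts there were without day 3 replicate 1 (1355 higher, 1373 lower; 2 and 7 members) and without day 4 replicate 2 (1635 and 1370; 2 and 8 members). Without day 3 replicate 2, 2022 genes were higher and 8 members lower, and without day 4 replicate 1, 2034 genes were higher and 2 members were higher and 8 lower. The causes were not tested. Only 2 arrays per day, and no signal over background in these values, limit what can be seen for dim genes.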
